A study of Mus musculus with 2 samples.

Results

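Cells with the strongest megakaryocyte transcript programme were taken from 2 single-cell RNA libraries of cultured mouse haematopoietic stem cells (HSC). Each cell was scored by the mean of the deposited natural log values of 8 genes, Clec1b, Serpine2, Timp3, Ppbp, Cavin2, Gp9, Gp5 and Itga2b. The cells chosen by this score, the top 10% of the pooled cells (1856 of 18560), are called megakaryocyte-committed cells below. The name stands for the score alone, since the fate of the cells was not measured. Of these, 1240 came from the vehicle culture and 616 from the culture with deferoxamine (DFO), an iron chelator.

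Megakaryocytes are the large marrow cells that shed platelets. Their precursors switch on the receptors of the platelet surface, fill alpha granules with chemokines and clotting proteins, and replicate DNA without dividing. The hormone thrombopoietin drives the lineage, and the factors Gata1, Fli1, Runx1 and Nfe2 control its genes. Part of the mouse HSC pool already carries platelet transcripts, and HSC can enter the lineage directly.

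The starting cells were sorted as Lin−Sca-1+c-Kit+CD150+CD48− from marrow of 8 wild-type C57/B6 mice, 6 to 8 weeks old, whose lineage-depleted cells had been pooled. Both cultures ran for 48 h in liquid medium with stem cell factor at 100 ng/ml and thrombopoietin at 50 ng/ml, 1 with DFO at 10 µM and 1 with sterile water as vehicle. Per culture, 20000 cells went into droplet 3′ end sequencing with molecular identifiers. The design asks how iron chelation alters the transcripts of HSC, and inside the megakaryocyte-committed cells the comparison was again DFO against vehicle. Because thrombopoietin was in both cultures, neither library is a culture without megakaryocyte drive. That both libraries came from 1 sort is not stated per library.

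Each group was 1 library, which leaves every difference without a replicate check, and none was tested. Counts of genes past a fold are descriptions of these libraries. Levels are molecules summed over the named cells, scaled to counts per 1000000 molecules of those cells (CPM), with exact 95% Poisson intervals in parentheses. Log2 differences are between CPM values with 1 added to each, which understates the difference of low genes. Shares of cells carry exact 95% Clopper-Pearson intervals, and both kinds of interval cover counting error only.

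The megakaryocyte-committed cells made up 14.2% (13.5 to 14.99) of the 8708 vehicle cells and 6.25% (5.78 to 6.75) of the 9852 DFO cells. These shares follow from the scores and are a description of where the cells of each library lay. The score ran down without a gap where the group begins, as the plot of scores shows. The group is thus the upper end of a range of scores. Whether it holds a separate type was not tested, since a mean over sparsely detected genes can lack a gap in either case. The lowest score inside was 0.658 natural log units, with 279 cells within 0.05 above it and 355 within 0.05 below it. Of the 100 cells just inside, 65 were vehicle cells, and Pf4, which was not part of the score, stood at 2721 CPM. Of the 100 cells just outside, 59 were vehicle cells, with Pf4 at 2080 CPM. Treml1, also outside the score, stood at 44.6 and 30.6 CPM in the same 2 groups of cells. Among the committed cells the median score was 0.861 for vehicle and 0.803 for DFO.

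**Figure D1:**
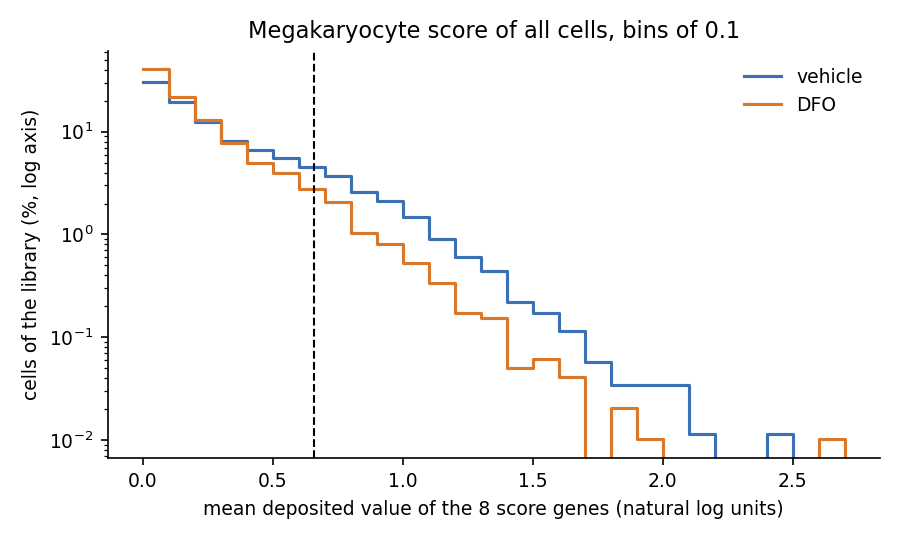
Megakaryocyte score (x axis, natural log units, bins of 0.1) against the percentage of each library's cells (y axis, log scale), vehicle in blue and DFO in orange. The dashed line at 0.658 marks the lowest score taken, above which lie 14.2% of vehicle and 6.25% of DFO cells, and neither line has a gap there.

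The committed cells were deeper than the rest. Their median was 33750 molecules for vehicle and 31908 for DFO, against 27104.5 and 26889 in the other cells. After every cell was thinned to 10000 molecules, the median number of genes was 3041 and 3081 in the committed cells and 3056 and 3077 in the others. Mitochondrially encoded transcripts took a median of 3.28% (vehicle) and 3.74% (DFO) of molecules in the committed cells, and 3.97% and 4.44% in the others. Cells with both Xist and Y-linked transcripts, a sign of 2 cells in 1 droplet, were 34 of the vehicle (2.74%, 1.91 to 3.81) and 10 of the DFO committed cells (1.62%, 0.781 to 2.97), against 2.37% and 3.52% of the other cells. No other doublet call was used. The 2 libraries shared 24 cell barcodes, of which 1 vehicle and 2 DFO barcodes were in the committed group.

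The 8 score genes themselves mostly encode surface and secreted proteins of platelets. Itga2b encodes the alpha chain of the fibrinogen receptor. Gp5 and Gp9 belong to the receptor complex for von Willebrand factor, and Clec1b encodes the podoplanin receptor CLEC-2. Ppbp is a granule chemokine, Serpine2 and Timp3 are protease inhibitors, and Cavin2 is a coat protein of membrane caveolae. The score fixes that these genes are high in the group, so their values here are a description. At least 5 of the 8 were detected in 67.0% of vehicle and 64.3% of DFO committed cells, against 1.34% and 1.19% of the other cells. All 8 were detected in 87 vehicle and 21 DFO committed cells. Inside the group Itga2b stood at 313 CPM (308 to 318) for vehicle and 292 (285 to 299) for DFO, and Clec1b at 19.5 (18.3 to 20.8) and 11.2 (9.86 to 12.7).

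Promoter windows of the score genes and of Pf4 (platelet factor 4, a granule chemokine) are shown because these genes are high together in the group. Each RefSeq window (GRCm38.p6) holds 250 bases before and 50 after the gene's start and is written along the gene's own strand. Capitals mark the 6-letter words searched on both strands. For GATA factors these were AGATAA, then AGATAG, then TGATAA and lastly TGATAG, and for ETS factors such as Fli1 they were AGGAAG as well as CGGAAG. The 4 windows below are those of Pf4 (chr5:90772185-90772484, plus strand), Gp5 (chr16:30310732-30311031, minus strand), Gp9 (chr6:87777820-87778119, plus strand) and Itga2b (chr11:102469834-102470133, minus strand).
Pf4: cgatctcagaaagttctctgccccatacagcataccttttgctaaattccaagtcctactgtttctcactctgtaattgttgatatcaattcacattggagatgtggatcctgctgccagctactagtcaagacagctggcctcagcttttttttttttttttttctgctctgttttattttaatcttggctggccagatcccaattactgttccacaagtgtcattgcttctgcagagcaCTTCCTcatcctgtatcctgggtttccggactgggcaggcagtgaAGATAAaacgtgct
Gp5: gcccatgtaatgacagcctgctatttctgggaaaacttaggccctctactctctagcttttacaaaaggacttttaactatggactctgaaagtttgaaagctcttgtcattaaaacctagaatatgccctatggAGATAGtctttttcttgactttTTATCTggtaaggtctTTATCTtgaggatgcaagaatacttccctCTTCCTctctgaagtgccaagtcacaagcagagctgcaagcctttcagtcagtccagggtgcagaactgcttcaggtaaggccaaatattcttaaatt
Gp9: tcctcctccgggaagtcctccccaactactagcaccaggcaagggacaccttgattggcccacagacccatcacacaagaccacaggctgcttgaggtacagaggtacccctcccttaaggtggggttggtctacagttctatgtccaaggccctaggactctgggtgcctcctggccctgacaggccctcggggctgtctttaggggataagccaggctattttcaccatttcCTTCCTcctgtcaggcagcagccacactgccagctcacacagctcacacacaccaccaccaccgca
Itga2b: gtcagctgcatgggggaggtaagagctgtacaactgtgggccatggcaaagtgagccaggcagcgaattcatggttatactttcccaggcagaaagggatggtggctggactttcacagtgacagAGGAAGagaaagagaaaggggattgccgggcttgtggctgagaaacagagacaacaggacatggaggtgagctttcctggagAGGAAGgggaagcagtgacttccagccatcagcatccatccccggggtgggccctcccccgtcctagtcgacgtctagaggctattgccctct
Gp5 held 3 GATA words and 1 ETS word, Pf4 held 1 of each, Gp9 held 1 ETS word and Itga2b held 2. Over the 9 genes searched, 7 windows had an ETS word, 3 a GATA word and 2 both. Among all 32851 windows of this length in the table, 46.5% had an ETS word, 29.8% a GATA word and 12.6% both. A match is a stretch of letters, and no binding was measured.

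Outside the score genes, 170 of 7549 genes (2.25%) were at least 2-fold higher in the committed cells of both libraries and 199 (2.64%) at least 2-fold lower. These genes come from the cells that the score sorted, so the counts describe the group. Over all genes the median log2 difference was 0.01, and 52.3% of genes were above 0. The 15 highest by log2 difference were 2610528A11Rik, Serpinb2, Tesc, Pf4, Treml1, Il1b, Samd14, I830077J02Rik, Clca3a1, F2rl2, Csrp3, Vwf, Ehd3, Sardh and Pls1. Pf4 led the abundant transcripts, at 5534 CPM (5513 to 5555) for vehicle and 4172 (4145 to 4200) for DFO, against 544 and 293 in the other cells. After thinning, Pf4 was detected in 99.6% of vehicle and 96.7% of DFO committed cells, and in 72.7% and 60.8% of the other cells. In 179 thinned neutrophil-like reference cells, the top 1% by Mpo, Elane, Ctsg and Prtn3, the share was 43.6%. The median depth before thinning was 26236 molecules in those reference cells. Without thinning the shares for Pf4 were 99.8% and 99.2% in the committed cells, 90.01% and 80.7% in the others and 75.3% in the reference cells, so a single Pf4 molecule does not mark the lineage here.

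Of 20 platelet surface receptor genes at 10 CPM or more, 19 were higher in the committed cells on the mean of both libraries. Of the same 20, 10 were at least 2-fold higher, with a list median of 1.13. Over all genes 52.3% were higher and 2.25% at least 2-fold higher. Treml1, a receptor of the platelet granule membrane, stood at 88.5 CPM (85.9 to 91.3) for vehicle and 50.8 (47.9 to 53.9) for DFO, against 9.59 and 4.42 in the other cells. It was detected in 49.3% and 31.6% of thinned committed cells, in 7.07% and 3.96% of thinned other cells and in 1.12% of the reference cells (78.4%, 63.5%, 14.9%, 8.52% and 2.69% without thinning). F2rl2, a thrombin receptor of mouse platelets, stood at 34.9 and 39.4 CPM against 4.01 and 3.35. At the low end of the list, Pecam1 was at 40.3 CPM in both committed groups, against 42.9 and 40.5 in the other cells, and the tetraspanin Cd63 was at 798 and 802 against 690 and 689. Gp6, the collagen receptor, was not analysed here.

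Of 16 granule and secreted genes, 11 were higher and 7 at least 2-fold higher, with a median of 0.89, beside 52.3% of all genes higher. Serpinb2, an inhibitor of plasminogen activators, stood at 35.5 and 32.2 CPM against 0.903 and 0.625, and Vwf, the adhesive ligand stored in alpha granules, at 26.4 and 26.3 against 2.51 and 2.33. Lyst, a lysosome trafficking regulator, was lower, at 7.73 and 7.30 against 13.6 and 12.98. Of 22 cytoskeleton and integrin signalling genes, 17 were higher and 5 at least 2-fold, with a median of 0.43. Rap1b, the small GTPase that switches on platelet integrins, stood at 1083 and 1034 CPM against 217 and 205, and Lat, an adaptor downstream of platelet receptors, at 149 and 122 against 38.7 and 29.2. Arhgdib, an inhibitor of small GTPases, was lower, at 437 and 343 against 605 and 522. Tubb1, Myl9 and Dnm3 of this list were not analysed here.

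Among 21 transcription factors of the megakaryocyte and erythroid lineages, 15 were higher, 5 of them at least 2-fold, beside 52.3% of all genes higher. Gata1 was at 64.6 CPM (62.3 to 66.9) for vehicle and 52.6 (49.6 to 55.8) for DFO against 14.99 and 11.7, and Fli1 at 177 and 159 against 68.8 and 68.7. Nfe2, which acts late in platelet formation, differed little, at 58.6 and 55.2 against 53.3 and 48.4. Myb, a factor of cycling progenitors, was lower at 81.0 and 85.9 against 157 and 149, and Erg was lower at 6.18 and 6.84 against 15.4 and 13.9. Of 18 genes of thrombopoietin signalling 12 were higher, 2 of them at least 2-fold, beside the same 52.3% of all genes. Ptpn11, the phosphatase SHP2, stood at 165 and 135 against 56.5 and 51.8. Of the feedback inhibitors, Cish was higher at 60.9 and 71.7 against 40.5 and 52.4, while Socs2 was lower at 30.3 and 31.8 against 46.5 and 54.3.

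**Figure D2:**
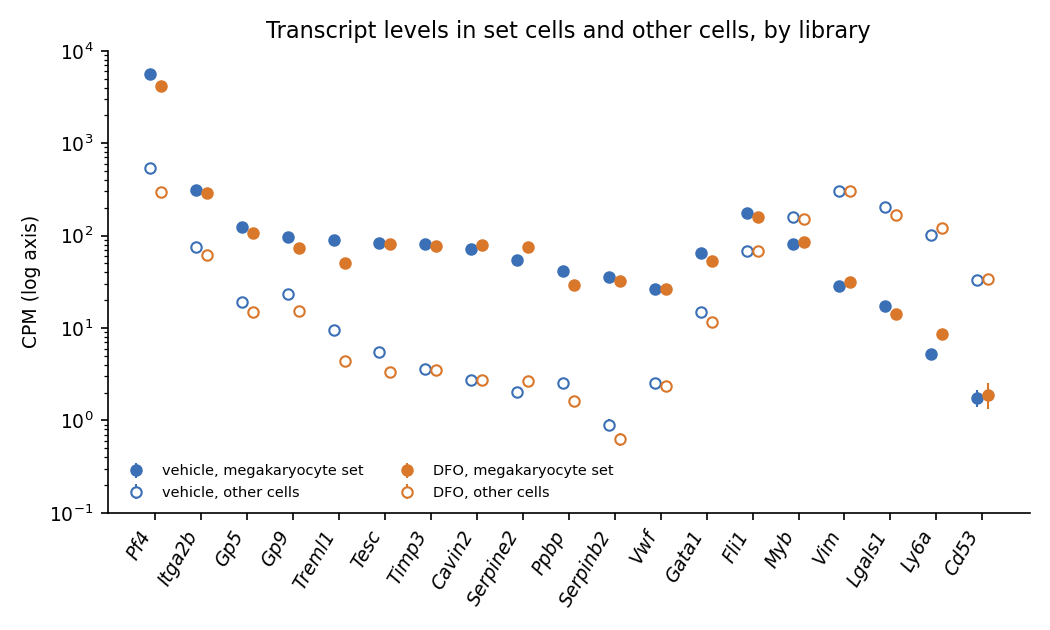
CPM on a log axis for 19 genes (x axis) in committed cells (filled circles) and other cells (open circles) of the vehicle (blue) and DFO (orange) libraries, with exact 95% Poisson intervals that are often smaller than the symbol. Pf4 through Fli1 are high in the committed cells of both libraries, and Myb through Cd53 are low in both.

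The 10 lowest genes outside the score were Ly6a, Myl10, Cd53, Lgals1, Clec4e, Ccl9, 1500009L16Rik, Vim, Adgrl4 and Cfp. Ly6a, the Sca-1 antigen of the sort, stood at 5.29 CPM (4.66 to 5.99) for vehicle and 8.53 (7.35 to 9.84) for DFO, against 101 and 120 in the other cells. Cd53, a leukocyte tetraspanin, was at 1.74 and 1.87 against 33.1 and 33.9. The filament protein vimentin (Vim) was at 28.3 and 31.7 against 302 in the other cells of both libraries. Of 15 HSC markers at 10 CPM or more, 9 were lower and 8 at least 2-fold lower, with a median of -1.19. The remaining 6 were higher. Over all genes 52.3% were higher and 2.64% at least 2-fold lower. Hlf, an HSC factor, was at 9.17 (vehicle) and 12.996 (DFO) against 74.7 and 76.4. In contrast, the sort marker Slamf1 (CD150) was higher, at 25.1 and 19.97 against 12.1 and 11.1.

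Markers of other lineages were weighed by their summed CPM. The 21 HSC markers summed to 576 and 586 CPM in the committed cells against 969 and 974, and to a median of 5.65 and 5.69 molecules per 10000 in a committed cell against 9.24 and 9.34. The 12 erythroid markers analysed summed to 551 and 531 against 1048 and 946, with medians per 10000 of 4.94 and 4.55 against 7.01 and 6.71. The lower sum does not mean that most members were lower. Within that list, 4 of 6 genes at 10 CPM or more were higher, 3 of them at least 2-fold, with a median of 1.07. Over all genes 52.3% were higher and 2.25% at least 2-fold higher, so 4 of 6 is near the share of all genes. Metallothionein Mt2 led them at 45.6 and 33.2 CPM against 5.89 and 4.80, while the globin Hbb-bt was at 102 and 103 against 610 and 521. The 13 neutrophil-monocyte markers summed to 148 and 136 against 307 and 266, and 1 of them in the vehicle and 3 in the DFO committed cells were at 0. The 4 lymphoid markers analysed summed to 161 and 140 against 103 and 76.7, nearly all of it Nkg7, a cytotoxic granule protein, at 154 and 130 against 89.3 and 63.5. Mast cell, eosinophil, macrophage and stromal lists had no member at 10 CPM, and their sums in committed cells were 5.12 and 5.20, 0 and 0, 3.51 and 3.78, and 14.5 and 13.6 CPM. The part of other cell types in the differences below was not tested.

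Cell cycle genes were set beside all genes, of which 52.3% were higher in the committed cells, with a median of 0.01. Of 44 S phase genes, 36 were lower in the committed cells, with a median of -0.17, and Mcm7, a subunit of the replicative helicase, stood at 165 and 187 CPM against 250 and 272. E2f8, an atypical E2F repressor known for its part in polyploid cells, had the largest upward difference of that list, at 89.1 and 84.9 CPM against 40.3 and 39.1. Of 49 G2/M genes, 30 were higher, with a median of 0.09. Ckap2l, a spindle protein, was at 222 and 170 against 55.5 and 50.7. The lowest 2 of that list both act in cytokinesis. Ect2, which activates RhoA at the cleavage site, was at 7.28 and 8.39 against 31.1 and 30.1, and Kif23, a motor of the central spindle, at 28.0 and 29.4 against 49.7 and 53.8. DNA content was not measured.

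When the committed cells were divided at the middle score, the upper part held 662 vehicle and 266 DFO cells and the lower part 578 and 350. Pf4 was at 6963 CPM in the upper and 3347 in the lower vehicle cells, and at 5940 and 2421 in the DFO cells. Vwf was at 34.6 and 13.8 for vehicle and at 38.9 and 13.7 for DFO, and Selp, the P-selectin of granule membranes, at 20.3 and 7.23 and at 25.6 and 8.90. The transcript 2610528A11Rik differed most, at 106 and 8.89 for vehicle and 115 and 14.8 for DFO, and Serpinb2, Tesc, Clu and Gm10419 were also among the 8 transcripts that were highest in the upper part. 2610528A11Rik was detected in only 6.68% and 8.01% of thinned committed cells. Lgals1, Vim, Cd24a, Tespa1, Phlda2, Plac8, Slc7a8 and S100a4 ran the other way, for example Vim at 18.4 in the upper and 43.5 in the lower vehicle cells. The upper cells were also deeper, with a median of 39564.5 molecules for vehicle and 36912 for DFO against 29933 and 29297, and the part of depth was not tested.

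The main comparison was DFO against vehicle inside the committed group. Of 5569 genes that reached 20 CPM in the committed cells of either library, 7 (0.126%) were lower with DFO by a log2 difference of at least 0.5 and 10 (0.18%) were higher. The median over all 5569 genes was 0.03, with an SD over genes of 0.14, so most transcripts of these cells were at similar levels in both libraries. With the top 10% of each library taken instead, 52 genes were lower and 38 higher, and with a minimum of 50 CPM 2 and 3. In the other cells 4 of 5563 genes (0.0719%) were lower and 2 (0.036%) higher by the same size. All 7 of the low genes were also below 0 in the other cells, and 4 of them passed 0.5 there too. Of the 10 high genes, 8 were above 0 in the other cells and 2 passed 0.5. Over the same 5569 genes the other cells had a median of 0.02 and an SD over genes of 0.11. The share of all genes below 0 there is not given here. The minimum could be met in 1 library alone, and 5 of the 10 high genes were below 20 CPM in the vehicle and 1 of the 7 low genes below it with DFO, so these 6 entered through the library where they were high.

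The 7 lower genes had varied roles, with 1 on the list of platelet receptors (Treml1), 1 on the glycolysis list (Slc16a3) and 1 among the score genes (Ppbp), on which the cells were chosen. Treml1 was the lowest, with a log2 difference of -0.79 in the committed cells and -0.97 in the other cells (levels above), and its Poisson intervals for vehicle and DFO do not overlap in the committed cells. Nt5e, the ectonucleotidase CD73, was at 37.8 CPM (36.1 to 39.6) for vehicle and 22.5 (20.6 to 24.6) for DFO, a difference of -0.72. Csrp3, a LIM domain protein, was at 37.8 (36.0 to 39.6) and 26.0 (23.9 to 28.2), a difference of -0.52. Both stood at under 5 CPM in the other cells. Ccdc180 (-0.60), the lactate exporter Slc16a3 (-0.59), Ppbp (-0.51) and Pafah1b3 (-0.51) completed the 7. Fcer1g, the signalling chain that pairs with the collagen receptor, and Vps33b, which is needed for alpha granules, lay just above the limit at -0.50 each, and Pygl, a glycogen phosphorylase, at -0.49. Pf4 was lower by -0.41 in the committed cells and by -0.89 in the others. Below the 20 CPM minimum, Clec1b was lower by -0.75, and between -1.58 and -0.42 under the alternatives. Clec1b is a score gene, on which the cells were chosen. Mrvi1, a substrate of cGMP kinase picked after its values were seen, was also below the minimum. It was at 15.4 CPM (14.3 to 16.6) for vehicle and 6.52 (5.50 to 7.68) for DFO.

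The medians of the platelet lists lay between -0.139 and -0.001. Against a background of 40.9% of all tested genes below 0, 10 of 18 receptor genes were lower with DFO (median -0.001), 9 of 12 granule genes (median -0.139), 15 of 21 cytoskeleton genes (median -0.092) and 12 of 19 lineage factors (median -0.058). Within the receptors, F2r, another thrombin receptor, was higher with DFO at 85.9 (83.3 to 88.6) and 105 (101 to 110) CPM, a difference of 0.29, and F2rl2 was higher by 0.17. Serpine2, a score gene, was higher at 54.3 (52.2 to 56.4) and 76.2 (72.5 to 79.9), a difference of 0.48. Vwf, Tesc and Timp3 had overlapping intervals in the 2 libraries, with differences of -0.01, -0.01 and -0.08. Gata1 was lower by -0.29, Zfpm1, its cofactor, by -0.21 and Fli1 by -0.15, whereas Nfe2 had overlapping intervals at -0.09. Of 11 thrombopoietin signalling genes 8 were higher, among them Cish by 0.23, while Pim1 was lower by -0.33 and Ptpn11 by -0.29.

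Some of these values changed with how the cells were chosen or weighted. Of the committed cells, 80.1% were also in the top 10% of each library, and the part of score position was not tested. When the cells were weighted to 1 common score distribution, the granule list's median was -0.017, and when the top 10% of each library was taken instead of the top 10% of all cells it was -0.517. Pf4 was at -0.25 and -0.97 and Treml1 at -0.68 and -1.21 under these same 2 choices. The lower levels of Treml1 and Pf4 kept their sign under all 19 alternatives, and the differences of Vwf, Tesc, Timp3, Serpine2 and F2rl2 did not.

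**Figure D3:**
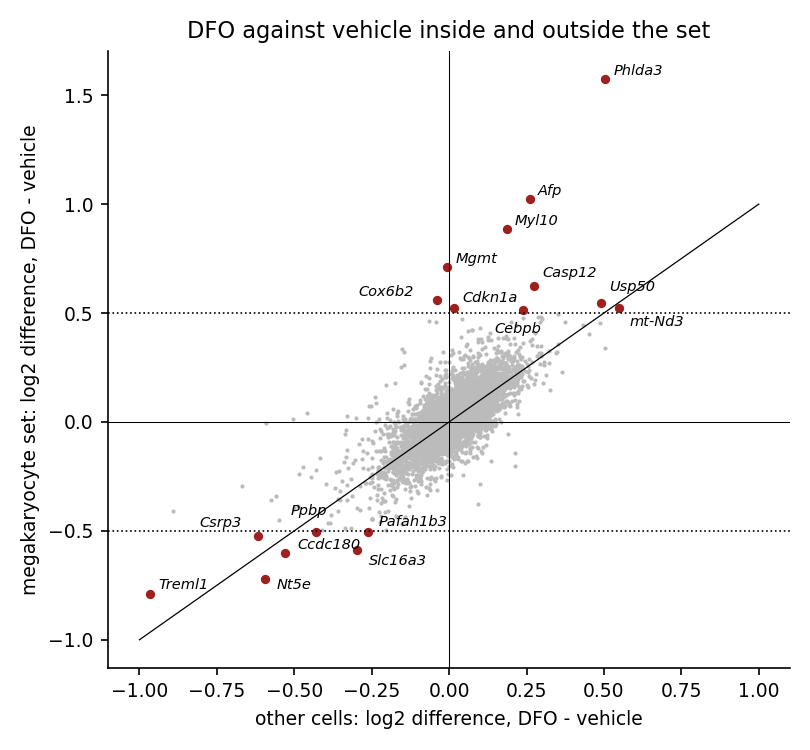
Log2 difference, DFO minus vehicle, in the other cells (x axis) and in the committed cells (y axis), 1 point a gene for genes at 20 CPM or more in the committed cells. Red points lie at 0.5 or beyond (dotted lines) in the committed cells, where Phlda3, Afp, Myl10, Mgmt, Cox6b2 and Cdkn1a lie well above the line of equal differences and Treml1 lies near it.

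On the higher side, Phlda3 had the largest difference. It encodes a repressor of Akt that p53 induces, and it passed the minimum only through its DFO level. Its level in the committed cells was 6.16 CPM (5.47 to 6.91) for vehicle and 20.3 (18.5 to 22.3) for DFO, a log2 difference of 1.58, from 291 and 446 molecules. In the other cells it was 2.64 and 4.17 CPM, a difference of 0.50. After thinning, 4.53% (3.43 to 5.86) of vehicle and 14.0% (11.3 to 17.1) of DFO committed cells held a Phlda3 molecule, against 2.41% and 3.85% of the other cells and 1.68% of the reference cells. Without thinning the shares were 11.6% and 32.0%, against 5.03%, 8.72% and 6.99%. No single cell carried the difference, since the highest cell held 19 molecules in the vehicle and 16 in the DFO committed group. Cdkn1a, the cell cycle inhibitor p21, was at 52.5 CPM (50.4 to 54.6) and 75.7 (72.1 to 79.5), a difference of 0.52, while the other cells were at 48.0 and 48.5. In the vehicle group 1 cell held 188 Cdkn1a molecules, and without the highest cell of each library the difference was 0.57.

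Other p53 targets also lay above 0 with DFO in the committed cells. Of 17 listed, 13 were above 0 there and 11 in the other cells, against 59.1% of all tested genes above 0 in the committed cells. The share of all genes above 0 in the other cells is not given here. In 15 of the 17 the difference was higher in the committed than in the other cells. How many of all genes did the same is not given either, so that count has no background. Differences over all tested genes also spread more in the committed cells, with an SD of 0.14 against 0.11. The median over all 17 was 0.26 in the committed and 0.04 in the other cells. It lay between 0.075, with thinned cells, and 0.302, with cells weighted to a common score distribution. Ccng1, a cyclin that p53 induces, was at 40.2 (38.4 to 42.1) and 53.03 (50.03 to 56.2) CPM, a difference of 0.39 against 0.04 in the other cells. Bax, which permeabilises mitochondria in apoptosis, was at 357 (351 to 362) and 429 (420 to 437), a difference of 0.26 against 0.11. Mdm2, the ligase that degrades p53, had overlapping intervals at 38.3 (36.5 to 40.1) and 40.9 (38.2 to 43.6), and Btg2 was lower by -0.22. Zmat3 and Eda2r, picked after their values were seen, were below the minimum. Zmat3, an RNA-binding protein, was at 4.72 (4.12 to 5.38) and 11.1 (9.77 to 12.6), and Eda2r, a death receptor relative, at 0.466 (0.292 to 0.705) and 1.69 (1.19 to 2.33) from 22 and 37 molecules.

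The p53 targets were also compared in female and male cells, since the pool held both sexes. Of the 17, 15 were above 0 in female and 11 in male committed cells, with medians of 0.23 and 0.16, against the 59.1% of all tested genes above 0 with both sexes together. That share covers genes at 20 CPM or more, which 7 of the 17 reached. Bbc3, Sesn1, Gadd45a, Btg2, Fas and Tnfrsf10b were below 0 in male cells. Phlda3 was higher by 1.56 in female and 1.70 in male committed cells, Cdkn1a by 0.62 and 0.60, Zmat3 by 0.83 and 1.36, Ccng1 by 0.26 and 0.51 and Bax by 0.23 and 0.28. Across the 19 alternatives Phlda3 lay between 0.91 and 1.91 and Cdkn1a between 0.35 and 0.76. Weighting the cells to 1 score distribution gave 1.64 and 0.57. The sexes share a library and are not replicates of the treatment.

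The plot of levels along the score shows where in the culture this lay. In the lowest 20% of cells by score, Phlda3 was at 2.27 CPM (1.82 to 2.80) for vehicle and 2.49 (2.08 to 2.96) for DFO, and the intervals overlap. In the bin from 80 to 90% it was at 3.90 (3.23 to 4.66) and 11.7 (10.4 to 13.1). Cdkn1a was at 46.2 (44.1 to 48.4) and 43.6 (41.8 to 45.4) in the lowest bin and at 50.9 (48.4 to 53.5) and 60.6 (57.6 to 63.8) in the bin from 80 to 90%. Inside the committed group, the upper and lower parts were at 6.20 and 6.11 CPM of Phlda3 for vehicle, and at 26.0 and 14.7 for DFO. Cdkn1a was at 53.1 and 51.6 for vehicle and at 90.5 and 61.1 for DFO. In the DFO cells both transcripts were higher toward the top of the score, while in the vehicle cells Phlda3 was so to a lesser extent and Cdkn1a hardly. This difference between the libraries was not tested.

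**Figure D4:**
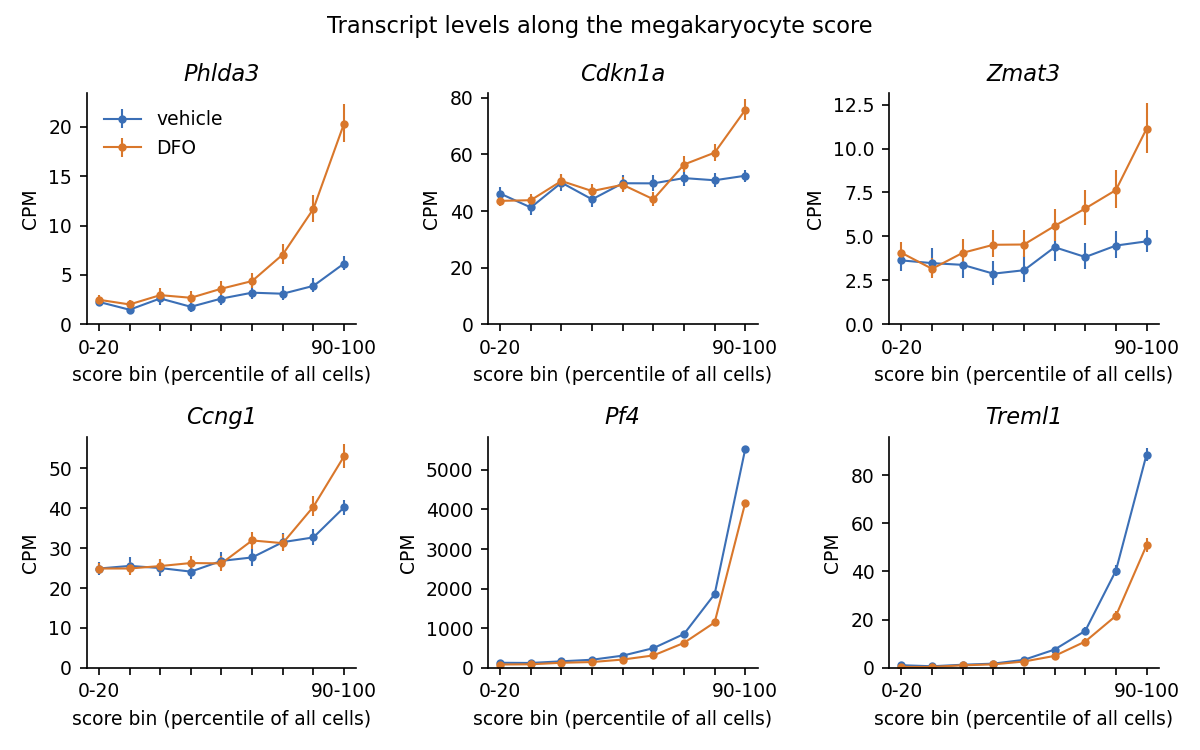
CPM with exact 95% Poisson intervals (y axes, from 0) in 9 bins of all cells ordered by megakaryocyte score (x axis, lowest 20% to highest 10%), vehicle in blue and DFO in orange. Phlda3 goes from 2.49 to 20.3 CPM along the DFO bins and from 2.27 to 6.16 along the vehicle bins, and Pf4 and Treml1 are lower with DFO in the top bin.

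The other transcripts higher with DFO had varied roles. Of these, Afp, Mgmt, Casp12 and Myl10 passed the minimum only through their DFO level. Afp, alpha-fetoprotein, was at 10.6 (9.68 to 11.5) and 22.5 (20.6 to 24.6) CPM, a difference of 1.02 against 0.26 in the other cells. Mgmt, a DNA repair methyltransferase, was at 15.3 (14.2 to 16.5) and 25.7 (23.6 to 27.9), and Cox6b2, a subunit of cytochrome oxidase, at 29.3 (27.7 to 30.9) and 43.6 (40.9 to 46.5). Casp12, a caspase, was higher by 0.63, Usp50 by 0.54 and Cebpb, a factor in the stress response, by 0.52. Myl10, a myosin light chain that is low in committed cells, was at 11.01 (10.1 to 11.996) and 21.2 (19.3 to 23.2). The mitochondrially encoded mt-Nd3 was higher by 0.52 in the committed and 0.55 in the other cells.

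HSC markers at 20 CPM or more differed little as a list. There 7 of 9 were lower, beside 40.9% of all tested genes below 0, with a median of -0.088. Only these 9 of the 21 listed markers reached the minimum. The listed markers below it went the other way, for example Flt3 at 0.57, Mecom at 0.43 and Hoxb5 at 0.30, though Fgfr3 was only at 0.01. The list as a whole thus had no common direction. Some genes that are low in the committed group were nevertheless higher there with DFO, such as Ly6a by 0.60, Hlf by 0.46 and Kit, the stem cell factor receptor picked after its values were seen, at 11.7 (vehicle) and 19.6 (DFO) CPM. These 3 were below the 20 CPM minimum. Ly6a turned to -0.56 when only the top 5% of cells was taken.

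Iron genes differed by small amounts in the committed cells. Tfrc, the transferrin receptor, was at 83.0 (80.4 to 85.6) and 92.0 (88.0 to 96.1) CPM, a difference of 0.15 against 0.33 in the other cells. Fth1, the ferritin heavy chain, was lower by -0.11 and Ftl1, the light chain, higher by 0.06, and Hmox1 had overlapping intervals at 4.23 and 3.69 CPM. Of 7 iron handling genes 5 were higher, close to the 59.1% of all tested genes above 0, with a median of 0.081 against 0.066 in the other cells.

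Metabolic lists had medians below 0, beside 40.9% of all tested genes below 0. All 17 cholesterol synthesis genes at 20 CPM or more were lower with DFO in the committed cells, with a median of -0.218, and 15 of them in the other cells, with a median of -0.113. Fdft1, squalene synthase, was at 22.4 and 17.5 CPM. Of 14 glycolysis genes 13 were lower, with a median of -0.205 against -0.132, and of 16 hypoxia response genes 13, with a median of -0.138 against -0.127. Egln3, an oxygen-sensing hydroxylase, was at 52.97 and 38.9 CPM. Of 8 eicosanoid genes 6 were lower, with a median of -0.143 against -0.112, and Alox5, the enzyme that opens leukotriene synthesis, was at 81.8 and 64.4.

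Several other lists had medians above 0, beside 59.1% of all tested genes above 0 and a median of 0.03. Of 28 MYC targets 26 were higher, with a median of 0.146 against 0.139 in the other cells, and 10 of 13 mitochondrially encoded genes, with a median of 0.144 in both kinds of cell. Of 42 S phase genes 33 were higher, with a median of 0.105 against 0.043, and that median was 0.177 in female and 0.004 in male cells. Of 9 ATF4 targets 8 were higher, with a median of 0.175 against 0.233. G2/M genes had a median of -0.031, which changed sign with sex, at -0.089 in female and 0.062 in male cells. Endomitosis and cyclin genes had a median of 0.030, and Ccnd1 was at 42.9 and 57.9 CPM.

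**Figure D5:**
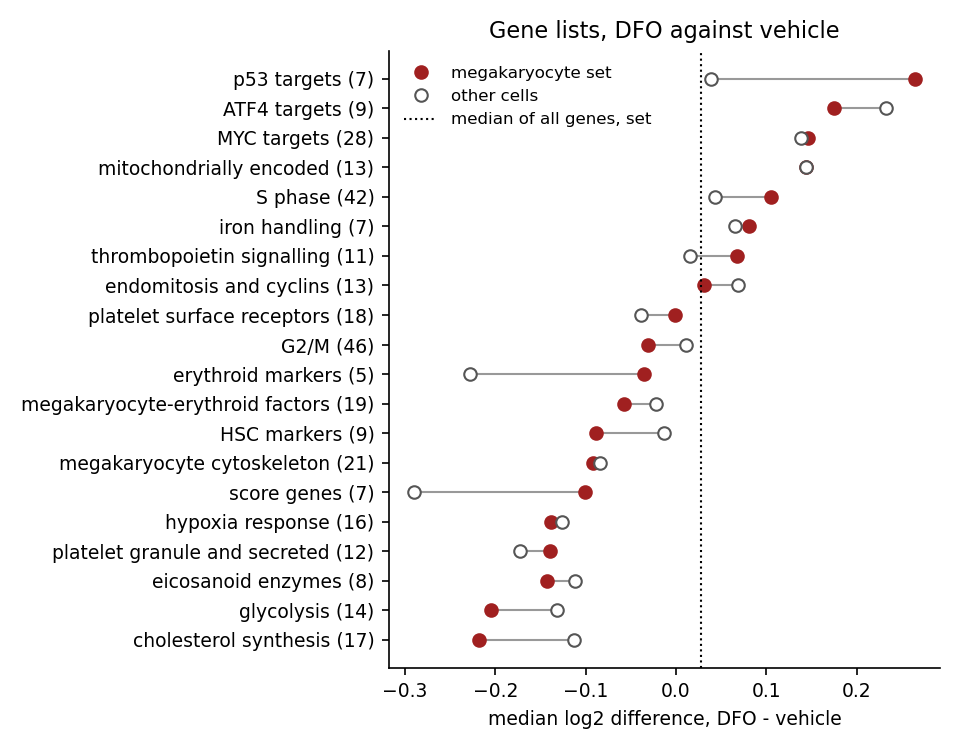
Median log2 difference, DFO minus vehicle (x axis), of each gene list with 5 or more members at 20 CPM (y axis, number of members in parentheses), in committed cells (red) and other cells (open circles). Members could pass through 1 library alone, as Phlda3 did. The dotted line is the median of all genes in the committed cells, 0.03, and the p53 targets are farthest to the right at 0.26 while their value in the other cells is 0.04.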

How the data were processed

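For each of the 2 libraries the authors deposited a table of natural log values, 14366 gene symbols by cell barcodes. Per the submitters' processing notes, FastQC 0.11.9, Trim Galore 0.6.5, Cell Ranger 3.0.2 and mm10 were used. Which genes and cells were kept, and by what rule, is stated in none of the sources used here. Each deposited value fits the natural log of 1 plus 27408 times the gene's share of its cell's molecules. Read back that way, every nonzero value (44114455 for vehicle, 49560434 for DFO) lay within 0.05 of a whole number, giving 260938938 and 284326017 molecules.

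The score is the mean deposited value of the 8 genes over each cell. Molecules were summed over cells of each library, scaled to CPM and compared on the log2 scale with a pseudocount of 1, with pandas 2.3.3, numpy 2.4.6 and scipy 1.17.1 under Python 3.11.15 (figures: matplotlib 3.10.9). With 1 library per group no count model was run. The script was checked on simulated data. Genes needed 10 CPM in committed or other cells of both libraries, or 20 CPM in the committed cells of 1 library for DFO against vehicle. Thinning drew 10000 molecules per cell and left out 27 vehicle and 17 DFO committed cells and 324 and 416 other cells. Sex was called from Xist and 4 Y-linked genes: at least 5 Xist and no Y-linked molecule for female, at least 2 Y-linked and no more than 1 Xist for male, and at least 5 Xist with at least 2 Y-linked for both.

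Genes were named from these: the 8 score genes, the 15 highest and 10 lowest genes of committed against other cells, the 10 lowest and 10 highest with DFO, 12 fixed genes beside the score genes, the 2 highest and 2 lowest members of lists, and the 8 highest and 8 lowest along the score. Members, genes and the 26 lists were chosen with earlier results of these data known. The 19 alternatives, of which 3 were chosen after seeing the data, varied the score, the cells, the scaling, the pseudocount and the minimum level. Some genes that these rules or lists hold are not reported here by name.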

Additional observations from a re-analysis of the deposited data

Results flagged for a closer look

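Cox6b2, a cytochrome oxidase subunit, was higher with DFO by 0.56 (log2) in the committed cells and at -0.04 in the other cells. The latter is on the other side of 0 but smaller than the SD over genes there, 0.11. Its 2 committed levels were 29.3 and 43.6 CPM, and the other cells were at 32.7 and 31.9 CPM. Mgmt, a DNA repair enzyme, was at 0.71 in the committed and -0.01 in the other cells, where its levels were 15.03 and 14.95 CPM. With 1 library a group, neither difference between the kinds of cell was tested. Under the alternatives, Cox6b2 in the committed cells lay between 0.22 (male cells only) and 0.91 (top 5% of cells), and Mgmt between 0.49 (top 10% of each library) and 0.93 (top 5% of cells).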

How the results depend on the processing

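The difference in share between vehicle and DFO, 7.99 percentage points, was 4.90 with the top 5% of cells (7.60% and 2.70%) and 11.3 with the top 20% (26.0% and 14.7%). It was 9.20 with a score from 7 other megakaryocyte genes, Gp1bb, Itgb3, Rab27b, Mrvi1, F2rl2, Treml1 and Pf4. That score shared 71.2% of its cells with the group described. Its genes include Mrvi1 (-1.13), Treml1 (-0.79) and Pf4 (-0.41), lower with DFO in the committed cells, and only F2rl2 (0.17) was higher. The value of 9.20 is therefore no independent check. The number of genes 2-fold higher in committed cells, 170, became 107 with a pseudocount of 10 and 73 with a minimum of 50 CPM. The number 2-fold lower, 199, became 102 with a pseudocount of 10, 303 with a minimum of 5 CPM and 57 with 50 CPM.

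The number lower with DFO, 7, became 14 with the top 5% and 11 with the top 20% of cells, 12 without cells of both sexes, 16 in female and 23 in male cells, 18 with a mean over cells, 11 with a pseudocount of 0.1 and 3 with 10. It was 27 and 2 with minimums of 5 and 50 CPM, 52 with the top 10% of each library, 11 with median ratio scaling and 20 with thinned cells. The number higher, 10, became 26 with the top 5%, 31 in female cells, 4 with a pseudocount of 10, 41 and 3 with minimums of 5 and 50 CPM, 38 with the top 10% of each library, 6 with median ratio scaling, 6 without each gene's highest cell and 21 with thinned cells. The causes were not tested, apart from the number of genes that the minimum lets in.

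Of the 1368 single-gene values under an alternative, 69 lay on the other side of 0 from the value reported, 67 of them for genes with a difference under 0.5 on the log2 scale. The other two were Ly6a at -0.56 with the top 5% of cells and Pmaip1, another p53 target, at -0.14 with thinned cells. Leaving out a replicate was not possible with 1 library a group. No paired analysis was possible because each group has 1 library. Depth limits low transcripts such as Eda2r, with 22 and 37 molecules. The Poisson intervals leave out variation between cells and cultures, and Gp6 could not enter the alternative score.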

Other observations

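Committed cells with and without a Phlda3 molecule after thinning to 10000 molecules were compared, a choice made after seeing the data and a description without a test. Phlda3 molecules were present in 55 of 1213 vehicle and 84 of 599 DFO committed cells. In vehicle cells with Phlda3, Cdkn1a was at 267 CPM (226 to 314), Ccng1 at 81.8 (59.7 to 109) and Bax at 527 (468 to 592), against 46.0 (42.2 to 50.1), 38.4 (34.9 to 42.2) and 332 (321 to 342) in vehicle cells without it. In DFO cells with Phlda3 they were at 160 (134 to 189), 67.9 (51.4 to 87.9) and 511 (464 to 561), against 59.6 (53.1 to 66.7), 40.8 (35.4 to 46.7) and 379 (362 to 396) without it. Pf4 was at 4831 and 4916 CPM in vehicle cells with and without Phlda3, and at 3685 and 3509 in DFO cells. Treml1 was at 76.4 (55.0 to 103) and 84.4 (79.2 to 89.8) for vehicle, and at 47.6 (34.0 to 64.8) and 48.7 (42.9 to 55.2) for DFO, with overlapping intervals in each library. Vwf was at 14.5 (6.28 to 28.7) and 20.98 (18.4 to 23.8) for vehicle, and at 35.7 (24.1 to 50.98) and 19.2 (15.6 to 23.4) for DFO, with overlapping intervals for vehicle and higher with Phlda3 for DFO. The 3 p53 target transcripts were thus higher in cells that held Phlda3 in both libraries. The same was seen outside the group, where Cdkn1a was at 160 CPM (142 to 181) with and 48.4 (46.8 to 50.1) without Phlda3 for vehicle, and at 96.2 (86.03 to 107) and 47.4 (45.9 to 48.9) for DFO. The median depth before thinning was 30095 molecules with Phlda3 and 34496.5 without it for vehicle, and 32055.5 and 32301 for DFO.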
